A study of Rattus norvegicus with 20 samples.

Results

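The genes described here encode the proteins of the cytosolic ribosome in the kidneys of rats with trauma-induced acute kidney injury. They were taken by name, as rows of the deposited expression table with a gene symbol of the form Rps or Rpl plus a number, and Rpsa, Rplp0, Rplp1 and Rplp2, where a value of at least 10 was reached in at least 3 of 20 libraries. The symbol pattern matched 79 rows, and all 79 met that minimum, out of 15954 rows that met it in the whole table. Of the 79, 32 belong to the small subunit and 47 to the large subunit, of which 3 form its stalk, and 6 are paralogs or near copies of a core gene (Rpl3l, Rpl22l1, Rpl37l1, Rpl39l, Rps27l and Rps4y2). Fau, Rack1 and Rpl36al also encode ribosomal proteins but lie outside the name pattern, and they are given separately.

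RNA from frozen kidney samples was sequenced as stranded mRNA libraries. The disease label put 3 libraries into RM-HS, 6 into RM, 5 into HS and 6 into Sham, and the labels spell out neither RM nor HS. The labels state no strain, age, sex or time after injury, and the design text counts 5 RM samples where the labels give 6, all of which were used. Whether every library is a different rat is not stated, so p-values here reflect how far these samples scatter, and some of that scatter may be technical.

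A cytosolic ribosome holds 1 copy of nearly every ribosomal protein, and the mRNAs for these proteins are among the most abundant in most cells. In vertebrates many of them begin with a stretch of C and T bases, called a 5′ terminal oligopyrimidine (TOP) tract, through which mTORC1 signalling and the binding protein Larp1 set how strongly they are translated. Such control acts on translation and on mRNA stability, and an mRNA count does not measure protein synthesis. In the injured kidney, tubular cells that survive are known to dedifferentiate and regrow.

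The letters around the annotated start sites show this feature in some of these genes and not in others. Each sequence below is a window of 30 bases from RefSeq (build GRCr8, on the strand given), with 10 bases before the start base and 20 from it on, and capitals mark an unbroken run of at least 6 C or T bases that covers the start base. Genes with a run and genes without one that the results return to are shown, with Rps27 and Rpl22 beside their paralogs.
Rplp1 (chr8:71290853-71290882, minus strand): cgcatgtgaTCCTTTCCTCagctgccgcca
Rplp2 (chr1:205975911-205975940, plus strand): cgccgccggacgccgccgaggtcgcacgcg
Rpl35 (chr3:43165902-43165931, minus strand): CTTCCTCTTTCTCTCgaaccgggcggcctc
Rps14 (chr18:56498250-56498279, plus strand): ccgTCTCTCTCTTTCCggtggaggagtctg
Rps27 (chr2:177964587-177964616, minus strand): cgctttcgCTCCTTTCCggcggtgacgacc
Rps27l (chr8:76443648-76443677, plus strand): ttcatttgtcattatttgtggtgtccagag
Rpl22 (chr5:168117951-168117980, plus strand): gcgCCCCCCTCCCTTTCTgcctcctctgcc
Rpl22l1 (chr2:113683186-113683215, plus strand): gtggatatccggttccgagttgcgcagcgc
Rps28 (chr7:15311314-15311343, minus strand): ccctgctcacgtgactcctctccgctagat
Rpsa (chr8:128728869-128728898, plus strand): ccgcgctaccctggaacgggtccgtacggc

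RefSeq held promoter entries for 62 of the 79 genes. Of their 63 entries 33 had such a run, which is 52.4%, against 8.26% of all 33469 rat promoter entries searched on the gene's own strand. Among promoters of mitochondrial ribosomal proteins the share was 9.23%. In the list of translation factors and other proteins with TOP mRNAs, described further on, 3 of 18 entries had a run, or 16.7%. Annotated starts can lie some bases away from the start used in kidney, so a window without a run says only that these letters are not in that place. No test set genes with a run against genes without one. In RM against HS, a comparison described further on, the median log2 difference was 0.30 over the 33 genes with a run, 0.31 over 29 without one and 0.30 over the 17 with no promoter entry, of which 14, 16 and 13 passed as higher. In RM against Sham the medians were 0.10, 0.16 and 0.16, with 6, 7 and 4 passing as higher. In RM-HS against Sham they were 0.19, 0.19 and 0.24, with 2, 5 and 6 passing.

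Ribosomal protein genes took 2.32% to 3.63% of all reads outside the mitochondrial genome. The share was 2.82% ± 0.17 in RM-HS (SD, n = 3), 2.81% ± 0.09 in RM (SD, n = 6), 2.62% ± 0.25 in HS (SD, n = 5) and 3.16% ± 0.46 in Sham (SD, n = 6). Each library held between 23265956 and 51908015 such reads, and 42.2% to 54.7% of the reads in the table lay on the mitochondrial genome. All further levels are the authors' DESeq2-normalized read counts, which scale each library by its typical gene and not by its total. Fold changes are differences of log2(value + 1) from limma, given ± SE, and a gene passed where its Benjamini-Hochberg adjusted p over all 15954 rows was under 0.05. The scale understates the change of low genes.

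On that scale the 77 genes with a mean of at least 50 moved together from library to library. Relative to each gene's mean over 20 libraries, their median lay 0.16 ± 0.10 higher in RM-HS and 0.11 ± 0.05 higher in RM, at -0.20 ± 0.12 in HS and at -0.03 ± 0.23 in Sham (log2, mean ± SD over libraries). All 3 RM-HS and all 6 RM libraries had a median between 0.03 and 0.28, and all 5 HS libraries lay between -0.33 and -0.01, so the HS libraries did not overlap with either group. The Sham libraries ran from -0.46 to 0.22 and overlapped with all 3 other groups. Sham 1 stood at -0.46 and was the lowest Sham library for 72 of 77 genes, whereas Sham 2 stood at 0.22 and was the highest for 62. Within HS, HS 3 was the highest library for 60 genes and HS 5 the lowest for 47, and RM-HS 2 was the highest of its group for 69.

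**Figure D1:**
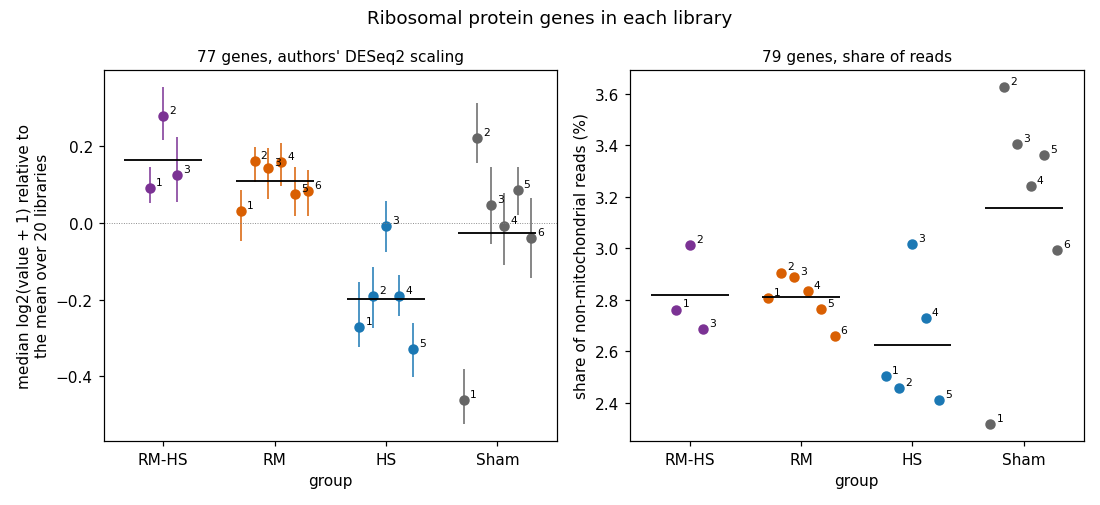
Left, the median of 77 ribosomal protein genes in each of 20 libraries, as log2 normalized read count relative to each gene's mean, with the quartiles of the genes as a vertical line; right, the share of non-mitochondrial reads (%) on all 79 genes. Points are libraries with their replicate number and the black bar is the group mean; the HS medians (-0.33 to -0.01) lie below those of RM-HS and RM (0.03 to 0.28), while Sham 1 is the lowest library in both panels.

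RM and HS, the labels that RM-HS joins, differed in these genes. All 79 were higher in RM than in HS in direction, 43 of them passed as higher and none as lower, with a median log2 difference of 0.30 against 0.02 over all tested rows. Among all rows 11.1% passed as higher and 12.6% as lower, against 54.4% of the ribosomal protein genes as higher. The genes that passed gained 0.23 to 0.51 on the log2 scale, which is 1.17 to 1.42 times. Both subunits took part, with 17 of 32 small and 26 of 47 large subunit genes passing as higher. For 34 of the 79 genes every RM library lay above every HS library, which held for 6.04% of all rows.

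Rps28, a small protein of the small subunit, showed the largest difference among the genes that passed. It had a lowest value of 3201, a median of 3297 and a highest of 3630.3 normalized reads in RM, and 1783, 2011, 3104, 2655 and 2373 in HS. Every RM library lay above every HS library, and the log2 fold change was 0.51 ± 0.15 (limma adjusted p = 0.0184). Rpl3, which reaches towards the catalytic centre of the large subunit, had the smallest adjusted p. Its levels were 23872, 25468 and 27039 (lowest, median, highest) in RM and 20528, 20875, 21896, 18073 and 18097 in HS, which again did not overlap. The log2 fold change of Rpl3 was 0.37 ± 0.08 (limma adjusted p = 0.00229).

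Rpl5, which with Rpl11 and 5S rRNA can bind the p53 regulator Mdm2, was at 12790.1, 14998 and 16269 (lowest, median, highest) in RM and at 12298, 12074, 12229, 12191 and 11092 in HS. No HS library reached the lowest RM library, and the log2 fold change was 0.32 ± 0.08 (limma adjusted p = 0.00496). Its partner Rpl11 ranged from 25634 to 30808 in RM and from 20095 to 28852 in HS. Those ranges overlapped, and Rpl11 did not pass (0.23 ± 0.10, limma adjusted p = 0.11). Rpsa, which is also known as a laminin receptor, rose by 0.33 ± 0.09 (limma adjusted p = 0.0111), and Rpl7 of the large subunit by 0.32 ± 0.08 (limma adjusted p = 0.00398). Rps19, mutated in human Diamond-Blackfan anaemia, and Rps6, the substrate of the S6 kinases, had similar differences of 0.29 ± 0.11 and 0.28 ± 0.11 that did not pass (limma adjusted p = 0.0657 and 0.0695).

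The difference between RM and HS depended on the scaling and on the libraries kept. After scaling to all non-mitochondrial reads the median of the 79 genes was 0.11 and that of all tested rows -0.16, and none of the 79 passed by limma, where 5% of all rows passed as higher, although 66 of the 79 had an unadjusted p under 0.05 with the authors' scaling. edgeR on reads recovered from the values called 38 and DESeq2 55. Fewer than 29 genes passed without HS 1 (17), HS 2 (21), HS 4 (26), HS 5 (11), RM 2 (21), RM 4 (22) or RM 6 (27), and Rpl3, Rpl5, Rpl7, Rpl10a, Rpl35, Rps4x, Rps18 and Rpsa passed whichever library was left out. The median over the 79 genes stayed between 0.27 and 0.35 in these fits. Library names begin with R or S, with no stated meaning, and RM has 1 named R and 5 named S against 3 and 2 in HS. Among libraries named S the medians were 0.08 to 0.16 in RM and -0.33 and -0.19 in HS, and among those named R 0.03 in RM and -0.27, -0.19 and -0.01 in HS. With the letter as a covariate 18 genes passed in RM against HS, and among libraries named R alone, with 1 of RM, none did.

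Markers of some other cells moved with the same comparison. Of 6 neutrophil markers 4 were higher in RM than in HS, with a summed level of 5031 to 20559 normalized reads in RM and 1929 to 8208 in HS. Both red cell genes tested were higher, at 113773 to 301256 in RM and 21707 to 113528 in HS, as were 3 of 6 macrophage and 3 of 5 endothelial markers. Markers of early proximal tubule, podocyte, thick ascending limb, distal convoluted tubule, fibroblast and lymphocyte did not pass, and 1 of 5 principal cell markers was lower. Among all rows 11.1% passed as higher and 12.6% as lower. No marker in these lists was at 0 in every library of a group. The part of these cells in the ribosomal protein difference was not tested. In bulk tissue, fewer cells of a type and less RNA per cell cannot be told apart.

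RM-HS, whose label joins the other 2, was also higher than HS. Here 39 of the 79 genes passed as higher and none as lower, against 10% and 10.6% of all rows, and the median log2 difference was 0.36 against 0.01 over all rows. The genes that passed gained 0.31 to 0.74 (log2). For 51 of the 79 genes all 3 RM-HS libraries lay above all 5 HS libraries, which held for 12.8% of all rows. All 3 stalk genes were among those that passed, as were 14 of 32 small and 25 of 47 large subunit genes.

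The stalk of the large subunit recruits the elongation factors that drive each step of translation, and its gene Rplp2 had the largest difference that passed. Rplp2 was at 4911, 7396 and 6399 normalized reads in RM-HS and at 3149.8, 3444, 5509, 3536 and 3213 in HS. HS 3 lay above the lowest RM-HS library and the other 4 far below, and the log2 fold change was 0.74 ± 0.22 (limma adjusted p = 0.0253). Rplp1 was at 60258, 74342 and 66096 in RM-HS and at 46984, 45534, 53270.2, 49313 and 46768 in HS, with no overlap (0.46 ± 0.13, limma adjusted p = 0.0163). Rplp0, the base of the stalk, passed narrowly at 0.38 ± 0.13 (limma adjusted p = 0.0494), and HS 3, at 43807, lay within the RM-HS values of 42571, 52125 and 45152. The Rplp0 call was lost in 17 of 20 fits that left out 1 library, that of Rplp2 in 4 and that of Rplp1 in 1. TMM scaling, upper quartile scaling and edgeR also ended the Rplp0 call, and the name letter as a covariate ended those of Rplp0 and Rplp2.

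Rpl23a and Rpl35, neighbours at the exit of the tunnel through which the new protein leaves the ribosome, had among the smallest adjusted p-values. Rpl23a was at 15834, 16343 and 15199.8 in RM-HS and at 10802, 11613, 11613, 10684 and 9648 in HS (0.54 ± 0.13, limma adjusted p = 0.00523). Rpl35 was at 39616, 49270.3 and 47100.0 in RM-HS and at 30984, 30258, 35843, 30256 and 28842 in HS (0.53 ± 0.13, limma adjusted p = 0.00812). Neither gene overlapped between the groups, but both rows share bases with another row of the annotation. Rps28 again had a large difference, with 3528, 4180.2 and 3924 in RM-HS, above all 5 HS libraries (0.72 ± 0.18, limma adjusted p = 0.00883).

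When libraries were scaled to all non-mitochondrial reads, the median of RM-HS against HS was 0.10 against -0.24 over all rows, and none of the 79 passed by limma, where 3.23% of all rows passed as higher; with the authors' scaling 65 had an unadjusted p under 0.05, and edgeR called 29 and DESeq2 52. The count also fell to 7 without RM-HS 2, to 13 without RM-HS 3 and to 22 without HS 5, it was 21 with the name letter as a covariate, and Rpl23a, Rpl35, Rps12, Rps28 and Rpsa passed whichever library was left out. Of the neutrophil markers 2 of 6, and both red cell genes, were higher in RM-HS than in HS as well. So were 1 of 6 macrophage, 1 of 7 early proximal tubule and 1 of 4 lymphocyte markers. By contrast, 1 of 5 endothelial and 1 of 5 principal cell markers were lower. Among all rows 10% passed as higher and 10.6% as lower. Summed neutrophil markers were 7582 to 12641 in RM-HS and 1929 to 8208 in HS, and their part in the result was not tested.

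**Figure D2:**
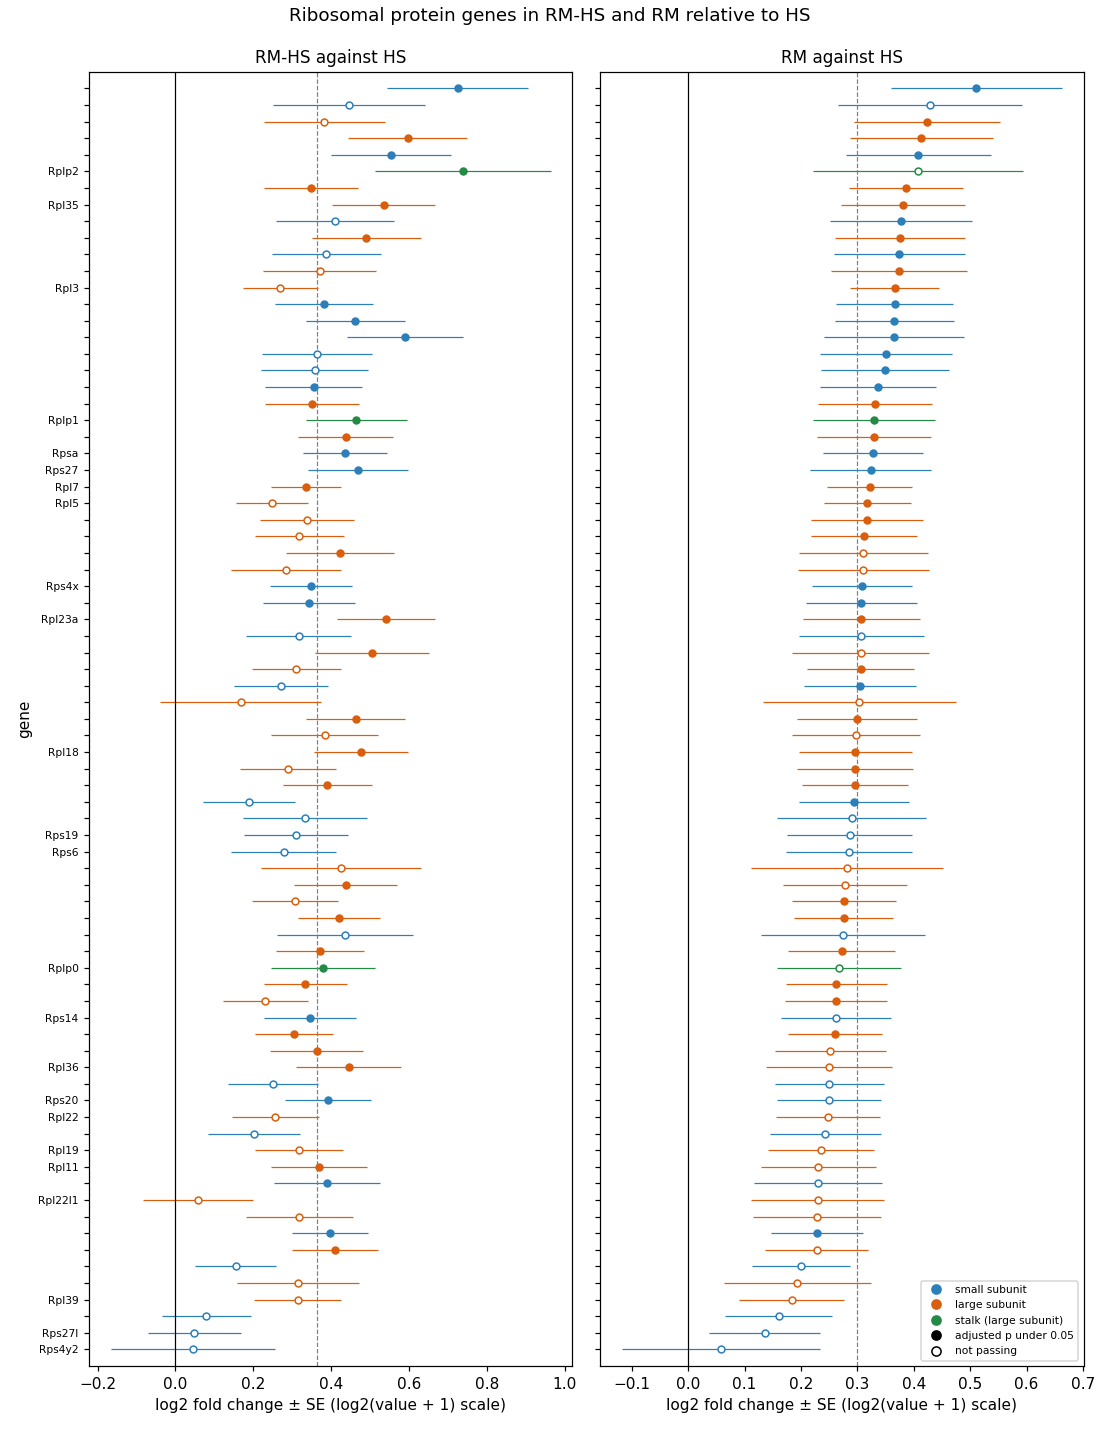
Log2 fold change ± SE of 77 ribosomal protein genes in RM-HS against HS (left) and RM against HS (right), sorted by the right panel; genes of the naming rule are labelled, filled points passed (limma adjusted p under 0.05), colours give the subunit and the dashed line is the median of the genes drawn. All 77 point to the right of 0 in both panels. In RM-HS against HS the paralogs Rps27l, Rps4y2 and Rpl22l1 lie far to the left, as does the core gene Rps7, which is not labelled. Rpl3l and Rpl39l, with means under 50, are not drawn.

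No ribosomal protein gene passed between RM-HS and RM. None of the 79 passed in RM-HS against RM by limma, edgeR or DESeq2, where 0.395% of all rows passed as higher and 0.689% as lower, and 1 of the 79 had an unadjusted p under 0.05. That gene was Rpl3l, named here after its values were seen, with means under 50, and it met the minimum value only through RM. The median difference was 0.04 against 0.00 over all rows, and the SEs of single genes were 0.09 or more, so differences of that size could not be resolved.

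**Figure D3:**
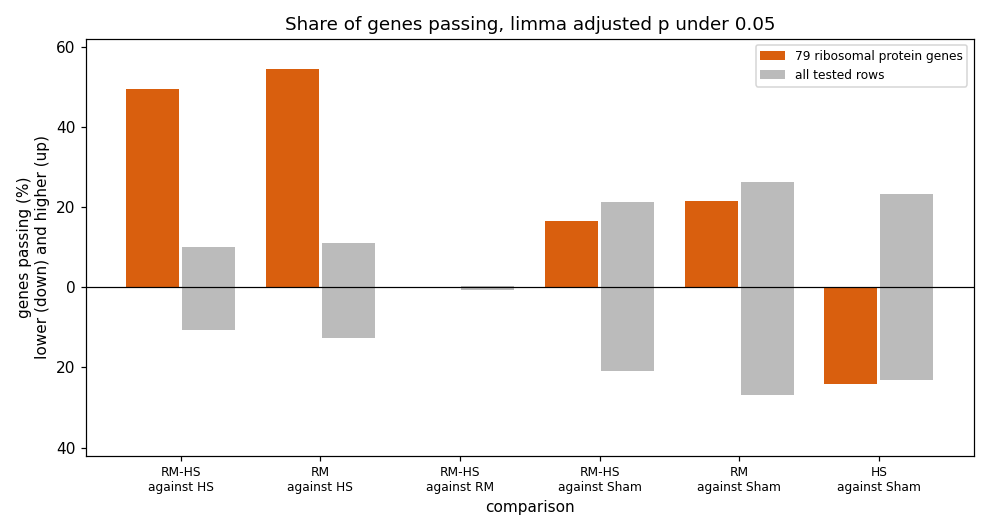
Percentage of the 79 ribosomal protein genes (orange) and of all 15954 tested rows (grey) that passed as higher (up) or lower (down) in 6 comparisons. The orange bars exceed the grey ones in RM-HS and RM against HS (49.4% and 54.4% against 10% and 11.1% as higher), and are near or below them against Sham.

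Against Sham the genes that passed lay in 1 direction in each comparison, in a share near or below that of all rows, and none passed in the other. In RM 17 genes passed as higher and none as lower, which is 21.5% against 26.2% of all rows, and no gene passed as lower where 26.8% of all rows did. In HS none passed as higher and 19 as lower, 24.1% against 23.2% of all rows, where 23.3% of all rows passed as higher. In RM-HS 13 passed as higher and none as lower, 16.5% against 21.3% of all rows, where 21% of all rows passed as lower. The medians were 0.14 in RM, -0.15 in HS and 0.20 in RM-HS, against -0.04, -0.03 and -0.03 over all rows. Every library of RM-HS lay above all Sham libraries for 7 genes, against 16.5% of all rows, and every library of RM for 2, against 13.3%. No gene had all HS libraries below all Sham libraries, which held for 12.2% of all rows. These comparisons share the Sham libraries, among which Sham 1 was low.

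The direction against Sham was set by the scaling in both groups that carry RM. Scaled to all non-mitochondrial reads, the medians turned to -0.16 in RM and -0.17 in RM-HS, while all tested rows moved to -0.34 and -0.39. Then 22 genes passed as lower and 1 as higher in RM, against 43.8% and 15.1% of all rows, and 9 as lower and none as higher in RM-HS, against 42% and 10.1%. Relative to the median of all rows the ribosomal protein genes lay 0.18 higher in RM and 0.23 higher in RM-HS with the authors' scaling, and 0.18 and 0.22 higher with the other. In HS the median was -0.25 with that scaling and 41 genes passed as lower and none as higher, against 28.3% and 18.6% of all rows.

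Sham 1 weighed on all 3 comparisons. Without it 13 genes passed as higher and 4 as lower in RM, none as higher and 42 as lower in HS, and 10 as higher in RM-HS. The shares of all rows in fits that leave out a library are not given here. Whether these genes changed more than others in such fits cannot be read from the counts. The HS count was between 7 and 12 without any 1 of Sham 2 to 5, HS 1, HS 2, HS 4 or HS 5, and the RM-HS count was 21 without Sham 2 and 4 without RM-HS 2. Early proximal tubule markers were mostly lower in Sham, with a summed level of 192342 to 279047 normalized reads in RM-HS, 167322 to 247425 in RM, 146710.0 to 182073 in HS and 49469 to 171754 in Sham, so that Sham overlapped with RM and HS. Principal cell markers were mostly higher in Sham, at 7700.1 to 17728 in RM-HS, 10475 to 34332 in RM, 12797 to 20064 in HS and 30473 to 82831 in Sham. Summed podocyte markers were also lower in Sham, with medians of 9097 in RM-HS, 11161 in RM, 9459 in HS and 4884 in Sham. Thick ascending limb markers were higher in Sham, with medians of 153235, 106364, 103492 and 287552 in the same order. The part of these marker differences in the ribosomal protein results was not tested.

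Some genes kept their calls when any 1 library was left out, though not with that scaling. Rps20, of the head of the small subunit, was at 9343, 10979 and 10256 in RM-HS, at 8794, 9131 and 9786 (lowest, median, highest) in RM, at 7239, 7773, 8784, 7786 and 7261 in HS, and at 5299, 7428 and 8114 in Sham. Every RM-HS and RM library lay above every Sham library, with log2 fold changes of 0.51 ± 0.11 in RM-HS (limma adjusted p = 0.000876) and 0.36 ± 0.09 in RM (limma adjusted p = 0.0017). HS overlapped with Sham (0.12 ± 0.09, limma adjusted p = 0.323).

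Rpsa was at 32869, 35754 and 32178 in RM-HS, at 30219, 31143 and 32408 (lowest, median, highest) in RM, at 24071, 24817, 29255, 24303 and 22186 in HS, and at 19854, 24862 and 29462 in Sham. The RM-HS and RM libraries all exceeded the Sham libraries, and the log2 fold changes were 0.43 ± 0.10 (limma adjusted p = 0.00254) and 0.32 ± 0.08 (limma adjusted p = 0.00338). In HS the difference from Sham was -0.00 ± 0.09. Rplp1 rose in RM-HS (0.45 ± 0.13, limma adjusted p = 0.00701) and in RM (0.32 ± 0.10, limma adjusted p = 0.014), although Sham 6, at 60672, lay within both their ranges and Sham 2, at 55970.1, just above the lowest RM library. Rpl5 and Rpl3 rose in RM by 0.34 ± 0.07 and 0.34 ± 0.08 (limma adjusted p = 0.000698 and 0.000774), and by 0.27 ± 0.09 and 0.25 ± 0.09 in RM-HS, where both calls were lost without some libraries. Once scaled to all non-mitochondrial reads, none of Rps20, Rpsa, Rplp1, Rpl3, Rpl5 and Rpl7 passed in either group, and the sign of Rpl3 and Rpl5 turned in RM-HS and that of Rpl7 in both. In RM, where 5 of 6 libraries are named S and all Sham libraries R, the calls of Rplp1 (limma adjusted p = 0.163) and Rpl5 (limma adjusted p = 0.0522) were lost with the name letter as a covariate, under which 5 of the 79 genes passed. Upper quartile scaling ended the RM calls of Rplp1 (limma adjusted p = 0.161), Rpsa and Rpl7.

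In HS the genes that passed fell by 0.23 to 0.51 on the log2 scale. Rps14, whose loss underlies the anaemia of the human 5q deletion syndrome, was at 4561, 4684, 5706, 5151 and 4664 in HS and at 4599, 6655 and 7078 (lowest, median, highest) in Sham. Without Sham 1 the lowest Sham library is 6357, above all HS libraries. The log2 fold change was -0.36 ± 0.10 (limma adjusted p = 0.00522). Rpl36 of the large subunit fell alike (-0.38 ± 0.11, limma adjusted p = 0.00825), with 3528, 3671, 4374, 3412 and 3511 in HS and 3224, 5077 and 5565 (lowest, median, highest) in Sham. Rplp2 fell the most (-0.51 ± 0.19, limma adjusted p = 0.0291), but its call was lost without any 1 of 8 HS or Sham libraries. Rpl14, Rpl18, Rpl22, Rpl36, Rps14 and Rps15 passed whichever library was left out. With Sham 1 and Sham 6 as the only controls, a pair chosen with earlier results of these data known, none passed in HS by limma, where 11.1% of all rows passed as lower, and the median was 0.0459. With all 6 controls 26 had an unadjusted p under 0.05, and edgeR called 13 and DESeq2 23.

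**Figure D4:**
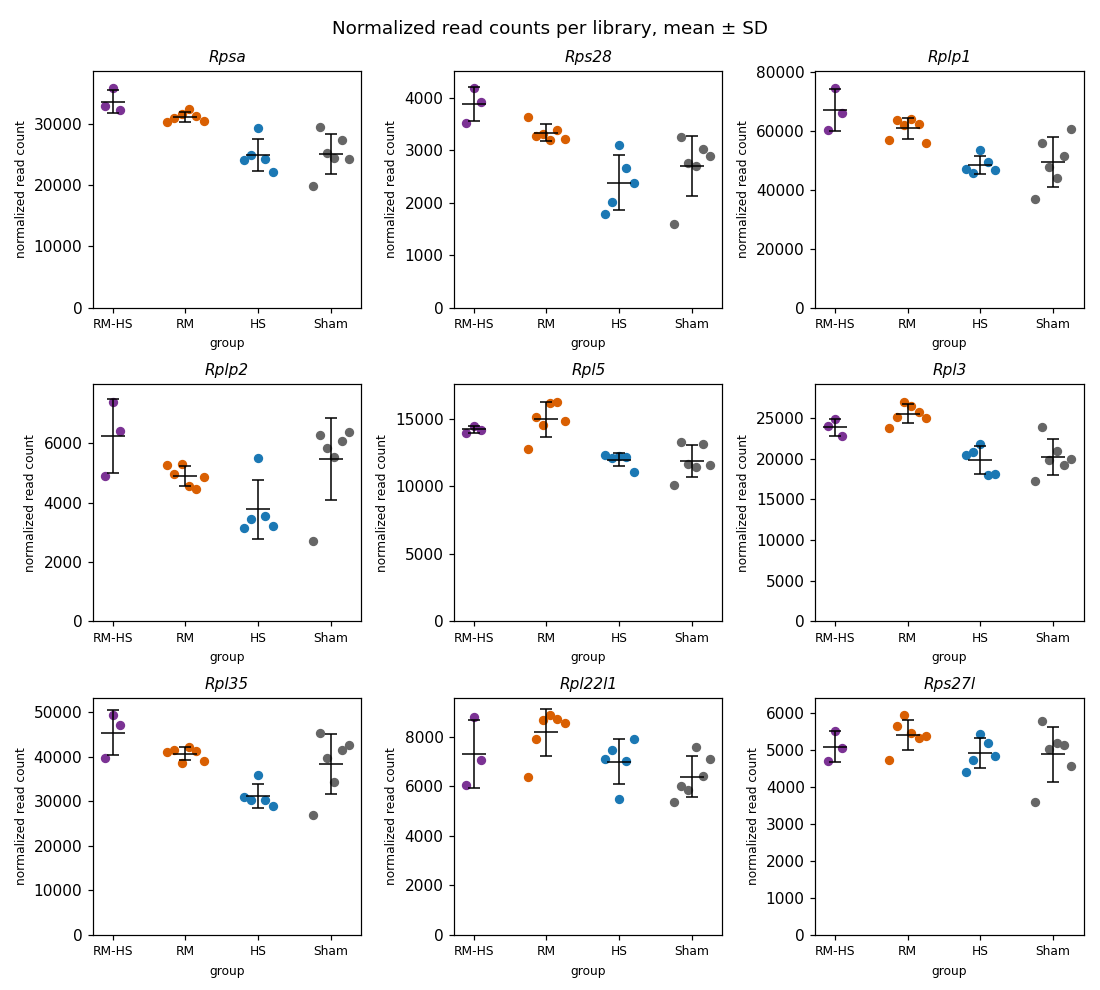
Normalized read counts of 9 ribosomal protein genes in each library of RM-HS, RM, HS and Sham, with mean ± SD (n = 3, 6, 5 and 6). Rpsa, Rps28, Rplp1, Rpl5, Rpl3 and Rpl35 have HS libraries below every RM library, Rplp2 has 1 high HS and 1 low Sham library, and Rps27l overlaps in all groups.

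The paralogs did not all follow the core genes, and the core genes were not all alike. Rpl37l1, a paralog, passed as higher in RM-HS against HS and in RM against HS. Rps7, a core gene, overlapped between RM-HS (5540, 6979 and 5527) and HS (6332, 6402, 5509, 5875 and 4425). Rpl22l1, a paralog of the RNA-binding Rpl22, was at 6049, 8799 and 7078 in RM-HS, at 6375, 8620 and 8870 (lowest, median, highest) in RM, at 7097, 7451, 5484, 7028 and 7895 in HS, and at 5377, 6218 and 7597 in Sham. It rose in RM (0.36 ± 0.11, limma adjusted p = 0.0111) with overlapping ranges, and not detectably in HS (0.13 ± 0.12) or RM-HS (0.19 ± 0.14). That call was lost with upper quartile scaling, with scaling to all non-mitochondrial reads and with the name letter as a covariate. Rpl22 itself was at 4655, 4118, 4254, 3909.6 and 3690.4 in HS and at 4001, 5183 and 5785 (lowest, median, highest) in Sham, and fell in HS (-0.29 ± 0.09, limma adjusted p = 0.0127). In RM Rpl22 differed from Sham by -0.05 ± 0.09 and did not pass. Against Sham only Rpl22l1 of the pair passed in RM and only Rpl22 in HS, and the difference between the 2 genes was not tested.

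Rps27l, which p53 induces in human and mouse cells, passed in no comparison. It was at 4691, 5521 and 5049 in RM-HS, at 4732, 5407 and 5934 (lowest, median, highest) in RM, at 4409, 4738, 5441, 5185 and 4835 in HS, and at 3580, 5080 and 5777 in Sham. The 4 groups overlapped. Its core counterpart Rps27 rose in RM against HS (0.32 ± 0.11, limma adjusted p = 0.0331) and in RM-HS against HS (0.47 ± 0.13, limma adjusted p = 0.0152), where Rps27l differed by 0.14 ± 0.10 and 0.05 ± 0.12. Rps4y2 was low throughout, between 204 and 399.8 in all 20 libraries, and passed in no comparison.

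Rpl3l, the form of Rpl3 found in heart and skeletal muscle, was near 0 in these kidneys. It was at 0 in all 3 RM-HS libraries, at 12.7, 24.9, 12.1, 8.36, 3.33 and 11.4 normalized reads in RM, at 7.48, 6.80, 27.1, 0 and 0 in HS, and at 0 in 4 of 6 Sham libraries, with 7.74 and 10.3 in the other 2. Outside RM only HS 3 and Sham 6 reached 10, so Rpl3l met the minimum of 10 in 3 libraries only through RM. Its comparisons with RM are therefore partly set by that selection. All 6 RM libraries held some reads. The limma call of RM against Sham (adjusted p = 0.0243) did not hold with edgeR, which gave an adjusted p of 0.142, nor with DESeq2, at 0.177. In each of the 11 libraries that had any, the recovered reads of Rpl3l were a multiple of 3, the cause of which was not tested. Rpl39l, a paralog known from testis, was at 0 to 50.7 in all libraries and passed in no comparison.

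The departure from additivity asks whether the values of RM-HS differ from the sum of the RM and HS differences from Sham. It passed as positive for 8 of the 79 genes and as negative for 1, against 14.9% and 16.8% of all rows, with a median of 0.22 against 0.02. Rpl36 (0.58 ± 0.17, limma adjusted p = 0.0147) had means of 5028 ± 405 in RM-HS (SD, n = 3), 4389 ± 243 in RM (SD, n = 6), 3699 ± 389 in HS (SD, n = 5) and 4880.1 ± 868 in Sham (SD, n = 6). The lower value of HS did not carry over to RM-HS. Of the positive calls only that of Rpl36 passed whichever library was left out. The negative call, Rpl3l, also did, but this gene met the minimum value only through RM, which enters the term with a minus sign. Its call was lost with Sham 1 and Sham 6 as the only controls (limma adjusted p = 0.0947). The count was 34 without Sham 1, 16 without HS 3, 4 without RM-HS 3 and 2 without RM-HS 2. None of the 8 positive calls held with the name letter as a covariate.

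Genes that build and use ribosomes were counted from lists chosen with earlier results of these data known. Ribosome assembly factors, which process rRNA and load ribosomal proteins in the nucleolus, were higher against Sham in all 3 injury groups: 36 of 50 passed as higher in RM-HS, 41 in RM and 40 in HS, with none, none and 2 lower. The shares of all rows were 21.3%, 26.2% and 23.3% as higher and 21%, 26.8% and 23.2% as lower in the same order. The medians of the assembly factors were 0.59, 0.75 and 0.54, against 0.20, 0.14 and -0.15 for the ribosomal proteins. Wdr43, of the complex that processes the small subunit's rRNA, averaged 4867 ± 971 in RM-HS, 6436 ± 1027 in RM, 3597 ± 454 in HS and 1618 ± 181 in Sham (SD, n = 3, 6, 5 and 6), a log2 rise of 1.57 ± 0.15 in RM-HS (limma adjusted p = 2.7e-07) and 1.98 ± 0.12 in RM (limma adjusted p = 3.2e-10). With the non-mitochondrial scaling 20 assembly factors passed as higher and 7 as lower in RM-HS, 33 and 4 in RM, and 35 and 2 in HS. The shares of all rows were then 10.1% and 42% in RM-HS, 15.1% and 43.8% in RM, and 18.6% and 28.3% in HS.

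RNA polymerase I and its factors, which make rRNA, passed as higher for 8 of 13 genes in RM-HS, 10 in RM and 7 in HS, with 1, 1 and none lower. Polr1b, a core subunit, averaged 845 ± 194 in RM-HS, 1379 ± 330.3 in RM, 878 ± 119.6 in HS and 408 ± 45.9 in Sham (SD), and rose in RM by 1.72 ± 0.16 (limma adjusted p = 4.1e-08). Ubtf, which binds the rRNA gene promoter, fell in RM-HS (-0.62 ± 0.09, limma adjusted p = 3.0e-05). The non-mitochondrial scaling gave 2 higher and 2 lower in RM-HS, 8 and 3 in RM, and 5 and 0 in HS. With the authors' scaling 21.3%, 26.2% and 23.3% of all rows passed as higher in RM-HS, RM and HS. With the other scaling 10.1%, 15.1% and 18.6% of all rows passed as higher and 42%, 43.8% and 28.3% as lower.

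Translation factors and other proteins with TOP mRNAs had medians of 0.32 in RM-HS, 0.35 in RM and 0.06 in HS against Sham. Those of the ribosomal proteins were 0.20, 0.14 and -0.15. In RM against HS the medians lay close, at 0.29 and 0.30. Of the 20 tested in this list, 12 passed as higher in RM-HS, 17 in RM and 4 in HS, with 2 lower in HS and none elsewhere. In RM against HS 11 passed as higher. Of all rows 21.3%, 26.2% and 23.3% passed as higher in RM-HS, RM and HS against Sham, and 11.1% in RM against HS. Eef2, which moves the ribosome along the mRNA, rose in RM against HS by 0.45 ± 0.10 (limma adjusted p = 0.00267), with means of 59121 ± 4080 in RM and 43437 ± 4620 in HS (SD, n = 6 and 5). Pabpc1, which binds the poly(A) tail, rose in RM against Sham by 0.77 ± 0.10 (limma adjusted p = 2.0e-06). Under the non-mitochondrial scaling the counts against Sham were 3 higher and 3 lower in RM-HS, 4 and 3 in RM and 3 and 4 in HS, and none passed as higher in RM against HS. Initiation factors outside that list passed as higher for 19 of 28 in RM-HS, 19 in RM and 14 in HS, with 1, none and 1 lower. Their medians were 0.37, 0.35 and 0.24, close to those of the TOP list in RM-HS and RM. With the non-mitochondrial scaling 6, 10 and 12 passed as higher and 6, 6 and 2 as lower. Of all rows 10.1%, 15.1% and 18.6% then passed as higher and 42%, 43.8% and 28.3% as lower.

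Mitochondrial ribosomal proteins, which serve the ribosome inside mitochondria, had a negative median against Sham in all 3 injury groups. Of 72, 17 passed as lower in RM-HS, 40 in RM and 55 in HS, with 4, 4 and 3 higher, and the medians were -0.14, -0.21 and -0.36. Of all rows 21%, 26.8% and 23.2% passed as lower, so the count in RM-HS was near that share. Mrpl36 averaged 2073 ± 268 in RM and 1932 ± 89.8 in HS against 3391 ± 346 in Sham (SD), and fell by 0.71 and 0.81 on the log2 scale (limma adjusted p = 9.0e-07 and 1.1e-06). In RM-HS against HS 20 of the 72 passed as higher and 1 as lower, where 10% and 10.6% of all rows did. In RM against HS 12 of the 72 passed as higher and 1 as lower, where 11.1% and 12.6% of all rows did. Of the cytosolic genes 54.4% passed as higher there. With the non-mitochondrial scaling none of the 72 passed as higher and 7 as lower in each of these comparisons. Against Sham 63 of them then passed as lower in RM-HS, 64 in RM and 62 in HS, where 42%, 43.8% and 28.3% of all rows did.

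Of the 25 tested genes around mTORC1 and the control of TOP mRNAs, 9 passed as higher and 5 as lower in RM-HS against Sham, 10 and 4 in RM, and 10 and 2 in HS. Those with the smallest p include Myc, a transcription factor that drives ribosome production and is not part of mTORC1, at 5784 ± 2518 in RM-HS, 6814 ± 1445 in RM, 1695 ± 221 in HS and 369 ± 102 in Sham (SD). Its log2 rise was 3.89 ± 0.25 in RM-HS, 4.22 ± 0.21 in RM and 2.23 ± 0.22 in HS (limma adjusted p = 2.8e-09, 1.7e-11 and 3.9e-07). Among 13 genes that sense or rescue stalled ribosomes 4 passed as higher and 3 as lower in RM-HS, 4 and 3 in RM, and 2 and 4 in HS. Of all rows 21.3%, 26.2% and 23.3% passed as higher and 21%, 26.8% and 23.2% as lower in these comparisons, against which the counts of both lists are to be read. Pelo, which splits stalled ribosomes, rose in RM by 1.68 ± 0.15 (limma adjusted p = 4.1e-08). Under the non-mitochondrial scaling the first list had 5 higher and 12 lower in RM-HS, 6 and 10 in RM and 9 and 4 in HS, and the second 1 higher in each with 7, 6 and 6 lower. The shares of all rows were then 10.1%, 15.1% and 18.6% as higher and 42%, 43.8% and 28.3% as lower.

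Fau, Rack1 and Rpl36al, the ribosomal proteins given outside the name pattern, all passed as higher in RM-HS against HS, and Rack1 and Rpl36al also in RM against HS, but none in either with the non-mitochondrial scaling. Fau, a fusion of a ubiquitin-like protein and a small subunit protein, had log2 differences of 0.51 ± 0.13 in RM-HS against HS (limma adjusted p = 0.00925) and 0.27 ± 0.11 in RM against HS (limma adjusted p = 0.0734). Rack1, a scaffold on the small subunit, had 0.30 ± 0.10 (limma adjusted p = 0.0428) and 0.34 ± 0.09 (limma adjusted p = 0.0065).

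**Figure D5:**
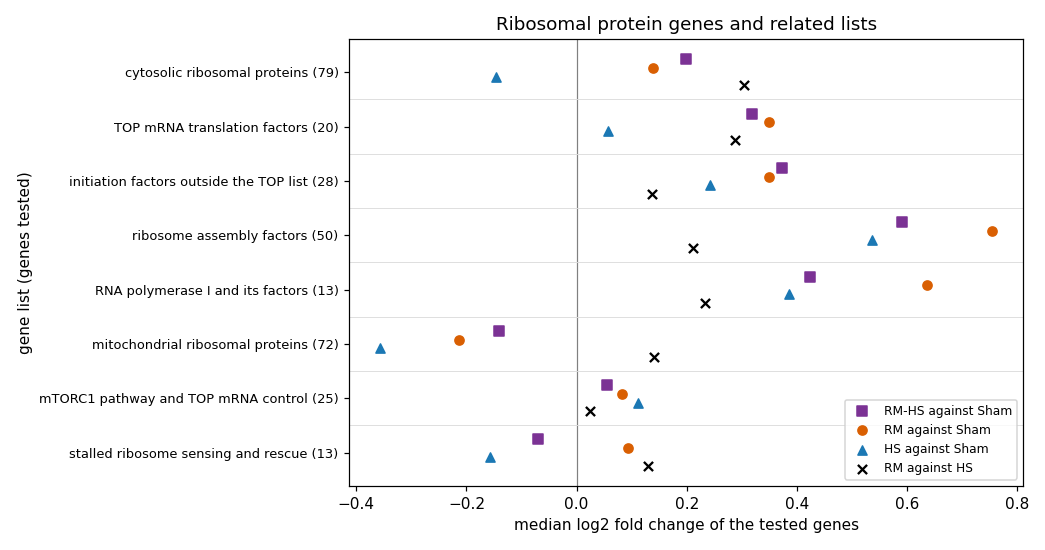
Median log2 fold change of the tested genes of 8 lists in RM-HS, RM and HS against Sham and in RM against HS, with the number of genes tested in brackets. Cytosolic ribosomal proteins lie at 0.20, 0.14 and -0.15 against Sham and at 0.30 in RM against HS, and assembly factors at 0.59, 0.75 and 0.54 against Sham.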

How the data were processed

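Per the labels' protocols, stranded paired-end mRNA libraries of frozen rat kidney were sequenced. The authors used FastQC 0.11.2, Picard 1.119, SAMtools 1.0, STAR on build rn6, featureCounts of Subread 1.5.0 and DESeq2, per the submitters' processing notes; their settings were not stated. The deposited signal values are read counts per gene divided by a DESeq2 size factor of each library, and the gene annotation is the one in the file header. Whole reads were recovered with 100% of values within 0.1 read. In 3187 of 15954 tested rows, 1 of them a ribosomal protein gene, all recovered reads share a divisor above 1, and the cause was not tested.

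Groups follow the disease label, and replicate numbers the order of the samples. The 15954 of 34681 rows that reached 10 in 3 or more libraries were tested on log2(value + 1) with limma 3.58.1 (R 4.3.3) with a variance trend, fitting the 4 group means together, with Benjamini-Hochberg adjustment per comparison. edgeR 4.0.16 and DESeq2 1.42.0 on the recovered reads were alternatives. Ribosomal protein genes called by edgeR and DESeq2 were 16 and 16 in RM, 13 and 23 in HS and 14 and 16 in RM-HS against Sham, 29 and 52 in RM-HS against HS, and 38 and 55 in RM against HS. Genes named in the text are, per comparison, those with the smallest adjusted p, in comparisons with Sham those with a set role (Rpsa, stalk, p53 and disease genes, paralogs) and up to 3 per list, of which some are given. Rps28 and others outside that rule were named after their values were seen. The members and lists were chosen with earlier results of these data known. Levels of different genes are not compared, since no transcript lengths were used. Of the 79 rows, 8 share bases with another row, and ribosomal protein genes have many processed copies, so how reads were shared among them is uncertain. Some genes are not reported by name here. The procedure was tested on simulated data.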

Additional observations from a re-analysis of the deposited data

Results flagged for a closer look

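In 81 groups of 5 or 6 libraries of the named genes, 9 held a library whose gap to its nearest neighbour was large for the range of the group. Chance gives about 1 in 20 among independent groups. These groups reuse the same libraries for genes that moved together, so 9 of 81 cannot be set against that share. In 4 of the 9 the library was Sham 1, with 8448 normalized reads of Rpl23a (other Sham libraries 11779 to 13198), 3224 of Rpl36 (4833 to 5565), 2709 of Rplp2 (5536 to 6394) and 4599 of Rps14 (6357 to 7078). HS 3 was high for Rpl36 at 4374 (other HS libraries 3412 to 3671), for Rplp2 at 5509 (3149.8 to 3536) and for Rpl3l at 27.1 (0 to 7.48). HS 5 was low for Rpl5 at 11092 (12074 to 12298), and RM 1 low for Rpl39 at 4218 (4789 to 4987).

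In 9 of the 79 genes the difference made by adding HS to RM departed from that made by HS alone, by the interaction term of limma. That was 10.1% as positive and 1.27% as negative, against 14.9% and 16.8% of all rows, so such calls were rarer here. None of the 8 positive calls held with the name letter as a covariate or with Sham 1 and Sham 6 as the only controls. On the log2 scale, taking both single injuries from RM-HS and adding Sham back, the term was 0.85 for Rplp2, 0.58 for Rpl36, 0.57 for Rps12, 0.57 for Rpl37l1, 0.50 for Rpl18, 0.49 for Rpl41, 0.44 for Rps14 and 0.42 for Rpl29, with adjusted p-values of limma between 0.0147 and 0.0493. For Rpl3l it was -4.59, a fitted value that depends on the pseudocount since RM-HS has no reads. Rpl3l met the minimum value only through RM.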

How the results depend on the processing

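Changing the pseudocount or the filter, TMM scaling with or without the ribosomal protein and mitochondrial rows, and the mitochondrial read ratio as a covariate, edgeR and DESeq2 left every count within 1.5 times, except that TMM scaling gave 11 genes in HS against Sham. Upper quartile scaling gave 6, 45 and 4 genes in RM, HS and RM-HS against Sham, 25 for the departure from additivity, and a median of -0.00299 in RM against Sham. Scaling to all non-mitochondrial reads gave 23, 41 and 9 genes in RM, HS and RM-HS against Sham, of which 22, 41 and 9 were lower, and none in RM-HS or RM against HS (0 and 0), with medians of -0.16 in RM and -0.17 in RM-HS against Sham, -0.019 in RM-HS against RM, 0.10 in RM-HS against HS and 0.11 in RM against HS. It also turned Rpl7 to -0.0328 in RM against Sham, and Rpl5, Rpl3 and Rpl7 to -0.10, -0.12 and -0.0815 in RM-HS against Sham. A fit of only the groups compared gave 4 in HS and 4 in RM-HS against Sham. The name letter as covariate gave 5 in RM and 6 in HS against Sham, 21 in RM-HS and 18 in RM against HS, and 1 for additivity (Rpl3l). Libraries named R alone gave 0 in RM and HS against Sham, 8 in RM-HS against Sham, and 0 in both comparisons with HS and for additivity, with 1 RM library that is assumed to vary like the others. Array weights gave 35 in HS against Sham, 68 in RM against HS and 22 for additivity. Sham 1 and Sham 6 as the only controls gave 41, 0 and 45 genes in RM, HS and RM-HS against Sham and 0 for additivity, with medians of 0.36, 0.0459, 0.41 and -0.00998. Except where given above, the shares of all rows under these settings are not stated, so the counts do not tell a change in these genes from one in the whole table. The cause of these changes was not tested.

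Leaving out 1 library at a time gave 14 to 24 genes in RM, 7 to 42 in HS and 4 to 21 in RM-HS against Sham, 0 in RM-HS against RM, 7 to 58 in RM-HS against HS, 11 to 63 in RM against HS and 2 to 34 for additivity. No paired analysis was possible because the labels give no replicate numbers that could link libraries across groups. With 3 RM-HS libraries and log2 differences mostly under 0.5, the SEs are large beside the differences, so calls near the threshold depend on single libraries.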
